A study of Homo sapiens with 132 samples.

Results

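VAV3, CXCR4, PPARGC1A and PCDH18 are 4 genes that were selected on earlier readings of these data because their mRNA was lower with EGF and higher with EGFR blockade in MKN1 gastric cancer cells. They are 4 of the 65217 Ensembl identifiers counted, and each symbol matched 1 identifier. Their values in MKN1 cells, the untreated reference included, are therefore a description of how they were chosen by the readout and are given without a test. The values of the lines NCI-N87, Hs746T and MKN7 were tested. Whether their afatinib values also had a part in the choice is not known, so their p-values may not be independent of it. The RNA sequencing libraries covered 44 conditions with 3 replicates each. MKN1 and Hs746T cells were left untreated or received EGF (5 ng/ml), cetuximab (Cet, 1 μg/ml), EGF + cetuximab, trastuzumab (Tra, 5 μg/ml), afatinib (Afa, 0.5 μM) or trastuzumab + afatinib, whereas NCI-N87 and MKN7 cells had the trastuzumab, afatinib and combined arms beside an untreated one. All conditions were sampled after 4 h and after 24 h. These are established lines from metastatic gastric carcinomas, so each line is 1 genetic background. Afatinib was dissolved in DMSO and compared with cells that received no solvent, so that drug and solvent cannot be told apart. The labels do not say whether the replicates came from separate cultures. The study's methods speak of independent experiments in general without naming these libraries, so that the p-values may measure a technical spread.

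The libraries held 25832557 to 69434151 counts, and 3 counts, taken as the smallest level that can be told from 0, were worth 0.0432 CPM in the deepest and 0.116 CPM in the shallowest library (counting error only). CPM relates the count of a gene to the TMM-scaled total of its library. The epithelial markers EPCAM, CDH1, KRT8, KRT18 and KRT19 summed to 12700 to 24000 CPM in MKN1, 9030 to 24500 CPM in NCI-N87 and 4280 to 7100 CPM in MKN7 libraries, but only to 437 to 745 CPM in Hs746T libraries. CDH1, which encodes E-cadherin, had a median of 1.96 CPM in MKN1 and 0.795 CPM in Hs746T cells against 239 CPM in MKN7 and 250 CPM in NCI-N87 cells. COL1A1, a fibroblast collagen gene, reached a median of 526 CPM in Hs746T cells. The leucocyte marker PTPRC did not exceed 0.651 CPM in any library. Others of its list were higher, with ITGAM at up to 13.6 CPM in MKN7 cells. The sum of the leucocyte list reached 14.6 CPM in MKN7 and 10.7 CPM in MKN1 libraries.

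EGF binds the receptor tyrosine kinase EGFR and turns on the MAPK cascade, whose feedback inhibitors DUSP6 and SPRY4 are among its best known transcriptional targets. Cetuximab is an antibody against the extracellular part of EGFR, trastuzumab an antibody against HER2, and afatinib an irreversible inhibitor of the kinases of the EGFR family. VAV3 is a guanine nucleotide exchange factor that links receptor tyrosine kinases to the actin cytoskeleton. CXCR4 is the chemokine receptor for CXCL12 and directs cell migration. PPARGC1A encodes PGC-1alpha, a transcriptional coactivator of mitochondrial biogenesis and oxidative metabolism. PCDH18 is a protocadherin, a cell surface protein of the cadherin superfamily.

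All 4 genes lie on the minus strand of GRCh38 (GENCODE release 29). VAV3 (ENSG00000134215) lies at chr1:107571160-107965144, CXCR4 (ENSG00000121966) at chr2:136114349-136118165, PPARGC1A (ENSG00000109819) at chr4:23755041-23904089 and PCDH18 (ENSG00000189184) at chr4:137518918-137532494. The antisense gene VAV3-AS1 overlaps VAV3 and reached at most 1.40 CPM, and the antisense gene AC093607.1 overlaps PPARGC1A and reached at most 0.966 CPM. The strand setting of the counting is not stated, so that reads from overlapping parts cannot be assigned to 1 of the partners with certainty.

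Promoter windows are shown as a description. A shared promoter basis for the direction by which the genes were chosen was not tested. The windows come from RefSeq (GRCh38.p14) and span 250 bases before to 50 bases after an annotated start, on the minus strand. For CXCR4 and PCDH18 a window at the start of the gene is shown, the first 16 bases inside the GENCODE gene start and the second exactly on it. For VAV3 only a window at an internal start of a short transcript was held, 276645 bases inside the gene. Capitals mark matches, on either strand, to the AP-1 site TGANTCA, the CRE core TGACG, the E-box CACGTG, the forkhead site GTAAACA, the GC box GGGCGG, the EGR core GGGGGCG, the ETS core CGGAAG, the TATA box TATAAA and the CCAAT box CCAAT. The EGR core can overlap the GC box.
CXCR4, chr2:136118100-136118399: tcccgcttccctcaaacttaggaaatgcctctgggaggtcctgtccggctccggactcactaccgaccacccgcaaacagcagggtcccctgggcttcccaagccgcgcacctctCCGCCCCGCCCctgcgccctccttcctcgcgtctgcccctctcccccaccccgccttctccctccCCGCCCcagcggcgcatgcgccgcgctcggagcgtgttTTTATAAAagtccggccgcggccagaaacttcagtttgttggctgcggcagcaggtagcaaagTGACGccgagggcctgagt
PCDH18, chr4:137532445-137532744: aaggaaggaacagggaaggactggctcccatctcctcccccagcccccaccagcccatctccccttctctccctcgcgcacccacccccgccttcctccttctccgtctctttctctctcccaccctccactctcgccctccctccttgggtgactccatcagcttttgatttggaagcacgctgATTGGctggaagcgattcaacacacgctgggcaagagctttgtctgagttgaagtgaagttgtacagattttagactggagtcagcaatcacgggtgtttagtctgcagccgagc
VAV3, internal start, chr1:107688450-107688749: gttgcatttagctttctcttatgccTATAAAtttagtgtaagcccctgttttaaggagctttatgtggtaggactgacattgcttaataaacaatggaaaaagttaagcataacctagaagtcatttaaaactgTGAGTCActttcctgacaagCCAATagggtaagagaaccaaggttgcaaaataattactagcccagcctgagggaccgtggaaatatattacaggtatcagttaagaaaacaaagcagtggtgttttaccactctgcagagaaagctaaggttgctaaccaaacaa

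The CXCR4 window held 3 GC boxes, 2 overlapping matches to the TATA box 30 and 32 bases before the start and 1 CRE core 31 bases after it, and 66.7% of its bases were G or C against a median of 58.7% over all 35116 windows. The PCDH18 window held 1 CCAAT box and 57.0% G or C. The VAV3 window held 1 AP-1 site, 1 TATA box and 1 CCAAT box with 38.0% G or C. Of all windows, 7.71% held an AP-1 site, 24.6% a CRE core, 7.26% an E-box, 3.42% a forkhead site, 45.0% a GC box, 22.8% an EGR core, 19.5% an ETS core, 11.5% a TATA box and 34.6% a CCAAT box. Of the 2 windows of PPARGC1A, 1 lay 22988 bases inside the GENCODE gene and the other at a start far before it, and they are not printed. Another 2 windows of CXCR4, at starts 296 and 1930 bases inside the gene, are not printed either. The first of them held 2 CCAAT boxes and 1 CRE core, and the second 2 GC boxes and 1 EGR core.

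VAV3 ranged from 3.86 to 129.5 CPM over the 42 MKN1 libraries. In untreated MKN1 cells VAV3 was at 14.6, 10.4 and 13.9 CPM after 4 h. After 4 h EGF treatment it was at 4.65, 3.86 and 5.53 CPM. After 4 h cetuximab treatment it was at 36.6, 23.9 and 43.0 CPM, and after 4 h afatinib treatment at 37.9, 29.1 and 49.6 CPM. The 3 states did not overlap, with EGF lowest and receptor blockade highest. After 24 h the untreated cells were at 66.1, 50.5 and 45.5 CPM and the EGF-treated cells at 11.0, 11.0 and 14.1 CPM. Cetuximab gave 91.6, 88.4 and 96.4 CPM and afatinib 118, 107 and 129.5 CPM after 24 h. The order was the same at both time points, again without overlap. The log2FC of EGF was -1.47 ± 0.21 (SE) after 4 h and -2.15 ± 0.20 after 24 h, that of afatinib 1.55 ± 0.20 and 1.11 ± 0.19, and that of cetuximab 1.40 ± 0.20 and 0.75 ± 0.19. In bulk RNA, fewer expressing cells and less RNA per cell cannot be told apart.

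CXCR4 ranged from 1.78 to 16.3 CPM in MKN1 cells. In untreated MKN1 cells CXCR4 was at 5.54, 5.90 and 5.45 CPM after 4 h, and EGF gave 1.78, 1.98 and 2.27 CPM. Cetuximab gave 12.9, 12.5 and 13.9 CPM and afatinib 14.6, 14.9 and 16.3 CPM at the same time. The groups did not overlap after 4 h. After 24 h the untreated cells were at 8.09, 8.87 and 5.08 CPM, the EGF-treated cells at 2.64, 2.57 and 2.59 CPM and the afatinib-treated cells at 14.3, 14.1 and 10.2 CPM. With cetuximab the level after 24 h was 12.4, 10.3 and 7.50 CPM, which overlapped the untreated libraries. Replicate 3 was the lowest library of untreated, cetuximab, afatinib and trastuzumab + afatinib at 24 h. The log2FC of EGF was -1.49 ± 0.23 after 4 h and -1.49 ± 0.23 after 24 h, and that of afatinib 1.40 ± 0.21 and 0.79 ± 0.21.

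PPARGC1A was lower with EGF by about as much as CXCR4 but less raised by receptor blockade after 4 h. Untreated MKN1 cells held 4.79, 4.10 and 3.42 CPM after 4 h, EGF-treated cells 1.63, 1.49 and 1.00 CPM and afatinib-treated cells 5.64, 6.13 and 6.76 CPM. After 24 h the untreated level was 12.4, 9.71 and 8.59 CPM, the level with EGF 3.18, 3.89 and 3.86 CPM and the level with afatinib 16.7, 15.4 and 15.4 CPM. The EGF libraries lay below and the afatinib libraries above all untreated libraries at both times. Cetuximab gave 6.48, 5.17 and 5.27 CPM after 4 h and 14.7, 16.3 and 12.8 CPM after 24 h, also above all untreated libraries. The log2FC of EGF was -1.56 ± 0.17 and -1.48 ± 0.16, whereas that of afatinib was 0.55 ± 0.16 after 4 h and 0.62 ± 0.15 after 24 h, below a change of 1.

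PCDH18 did not follow the label after 4 h of EGF. Untreated MKN1 cells held 1.30, 0.444 and 0.694 CPM after 4 h and EGF-treated cells 0.805, 0.614 and 0.566 CPM, so that the groups overlapped and the log2FC was -0.31 ± 0.38. Afatinib gave 2.83, 2.01 and 2.96 CPM at that time, above all untreated libraries. After 24 h the level was 6.21, 3.64 and 2.87 CPM in untreated cells, 1.26, 1.07 and 0.850 CPM with EGF and 17.2, 13.0 and 17.9 CPM with afatinib. These groups were apart, with log2FC of -1.99 ± 0.32 for EGF and 1.90 ± 0.28 for afatinib. Among the 4 genes, PCDH18 had the highest log2FC with afatinib at 24 h.

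**Figure D1:**
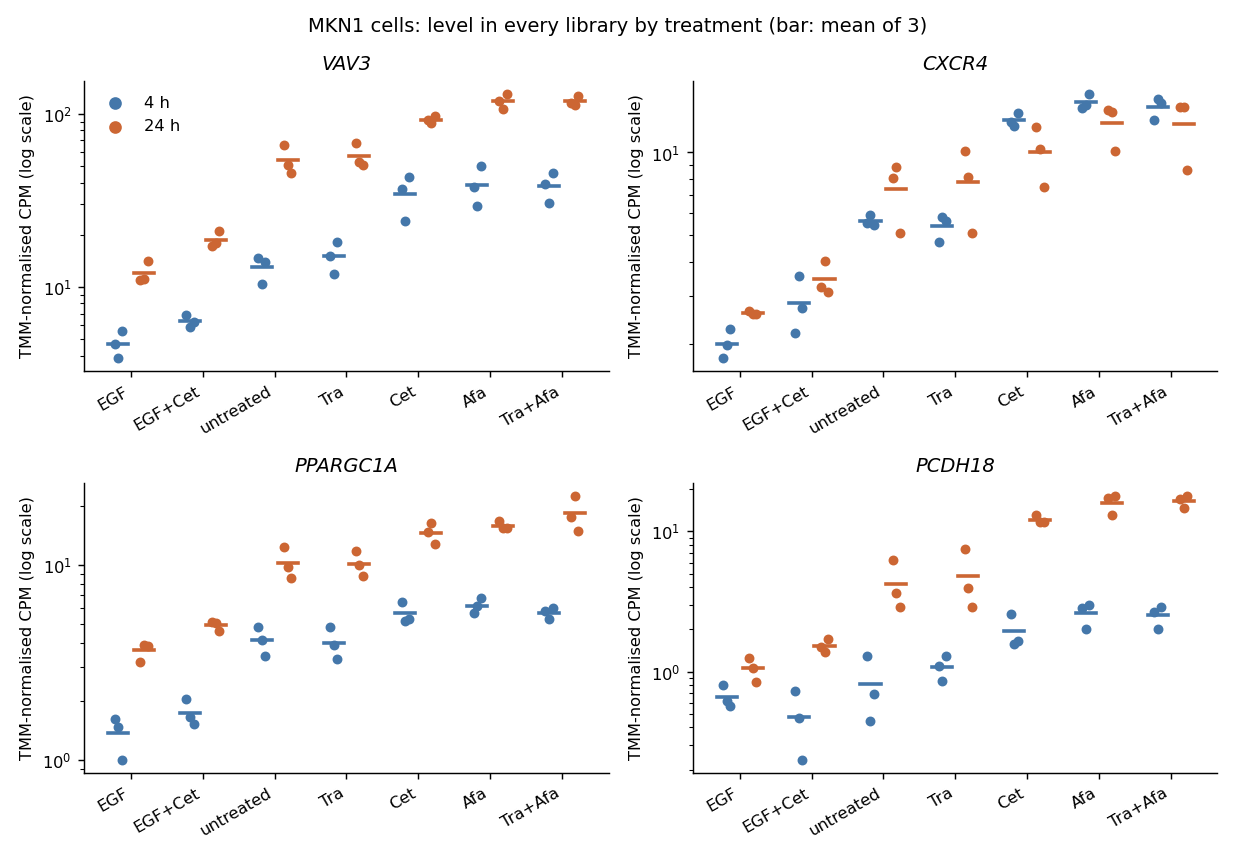
TMM-normalised CPM (log scale) of the 4 genes in every MKN1 library, by treatment and time (Tra, trastuzumab; Cet, cetuximab; Afa, afatinib), with points for libraries and bars for means of 3. VAV3 runs from 3.86 CPM with EGF to 129.5 CPM with afatinib, and trastuzumab alone sits at the untreated level.

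With EGF and cetuximab together, the genes were closer to their level with EGF than to that with cetuximab. VAV3 was at 6.91, 5.83 and 6.27 CPM after 4 h and at 17.3, 18.0 and 20.9 CPM after 24 h of the combination. Against EGF alone, its log2FC was 0.43 ± 0.21 after 4 h and 0.63 ± 0.20 after 24 h, and against cetuximab alone -2.44 ± 0.21 and -2.27 ± 0.20. CXCR4 differed from EGF alone by 0.47 ± 0.24 and 0.40 ± 0.23 and PPARGC1A by 0.32 ± 0.18 and 0.42 ± 0.16. At 24 h the combination gave 3.24, 4.03 and 3.10 CPM of CXCR4 and 5.07, 5.06 and 4.555 CPM of PPARGC1A. These libraries, and those of VAV3, lay above all libraries with EGF alone. At 4 h this held for VAV3, whereas CXCR4 and PPARGC1A overlapped. PCDH18 differed from EGF alone by -0.47 ± 0.41 after 4 h and 0.52 ± 0.34 after 24 h.

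Genes past an adjusted p (edgeR, Benjamini-Hochberg) of 0.05 and an absolute log2FC of 1 are called regulated. In MKN1 cells the members past these criteria were 3 with EGF at 4 h, where 1.48% of all 19815 genes passed, and 4 at 24 h, where 8.36% passed. They were 2 with cetuximab at 4 h (0.333% of all genes) and 1 at 24 h (1.33%), 3 with EGF + cetuximab at 4 h (0.116%) and 4 at 24 h (3.38%). With afatinib they were 3 at 4 h (0.681%) and 2 at 24 h (4.19%), and with trastuzumab + afatinib 3 at 4 h (0.727%) and 2 at 24 h (4.24%). Because these comparisons chose the members, nothing is read from their counts. With the replicate number as a block, PCDH18 also passed with cetuximab at 4 h. Among the 49 genes that passed as lower with EGF at 4 h, PPARGC1A was 10th, CXCR4 12th and VAV3 16th by log2FC. Among the 1237 that passed as lower at 24 h, VAV3 was 204th, PCDH18 253rd, CXCR4 545th and PPARGC1A 557th.

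Without treatment, 3 of the 4 genes were higher at 24 h than at 4 h in MKN1 cells. These untreated libraries were the reference of the choice, so the values are given without a test, beside a background of 8.06% of all genes regulated between the times. Untreated VAV3 was at 13.0 ± 2.27 CPM (SD, n = 3) at 4 h and at 54.0 ± 10.8 CPM at 24 h, a log2FC of 2.03 ± 0.20. PPARGC1A was at 4.10 ± 0.683 and 10.2 ± 1.95 CPM (log2FC 1.29 ± 0.16), and PCDH18 at 0.812 ± 0.439 and 4.24 ± 1.75 CPM (log2FC 2.32 ± 0.33). The libraries of these 3 genes did not overlap between the times, whereas those of CXCR4 did (log2FC 0.36 ± 0.21). Of the marker lists, the leucocyte marker PTPRC (3.31) and the fibroblast marker PDGFRB (1.79) rose between these times. PTPRC had a median of 0.102 CPM and a maximum of 0.262 CPM over the MKN1 libraries, near the 3-count level. The sum of the epithelial markers in untreated MKN1 cells was lower at 24 h, at 17200 to 17900 CPM against 19300 to 21100 CPM at 4 h. The sum of the endothelial and fibroblast markers overlapped between the times. The part of the markers in the members' values was not tested. In the other lines 0 of 9 tests of the members between 24 h and 4 h passed, with log2FC from -1.29 to 0.33 and adjusted p of at least 0.189 in edgeR, where the background was 0.0472% of all genes for NCI-N87, 0.129% for Hs746T and 1.76% for MKN7 cells. None of these 9 had an unadjusted p below 0.05, and DESeq2 called 0.

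Across the lines, each gene had its own order of untreated levels. VAV3 was highest in MKN1 cells, followed by Hs746T (2.77 ± 0.921 CPM at 4 h and 3.10 ± 0.204 CPM at 24 h), MKN7 (0.958 ± 0.136 and 0.671 ± 0.132 CPM) and NCI-N87 cells (0.269 ± 0.366 and 0.104 ± 0.104 CPM). The neighbours among the last 3 lines differed at both times by a log2FC of at least 1.50, with adjusted p of at most 0.000106 (edgeR, all lines in 1 fit), and steps to MKN1 cells are given without a test. CXCR4 was highest in MKN1 cells, at 5.63 ± 0.237 and 7.35 ± 2.01 CPM, and next in MKN7 cells, at 2.88 ± 0.894 and 2.97 ± 0.850 CPM. That step was 0.96 ± 0.30 at 4 h and 1.31 ± 0.29 at 24 h on the log2 scale. In NCI-N87 cells CXCR4 did not exceed 0.276 CPM, and in Hs746T cells it was at 0 counts in 24 of 42 libraries and never above 6 counts, at or near the 3-count level.

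PPARGC1A was highest in untreated Hs746T cells, at 11.8 ± 1.69 CPM at 4 h and 10.8 ± 2.26 CPM at 24 h. Its libraries overlapped those of MKN1 cells at 24 h (log2FC 0.08 ± 0.26) but not at 4 h (1.50 ± 0.27). NCI-N87 cells held 3.64 ± 0.462 and 3.67 ± 0.737 CPM and overlapped MKN1 cells at 4 h (log2FC of MKN1 over NCI-N87 0.15 ± 0.27). In MKN7 cells PPARGC1A did not exceed 0.144 CPM or 7 counts in a library. PCDH18 was likewise highest in Hs746T cells, at 3.58 ± 0.935 and 4.32 ± 0.662 CPM, above MKN1 cells at 4 h (log2FC 2.07 ± 0.33) and overlapping them at 24 h (0.03 ± 0.30). It did not exceed 0.318 CPM in MKN7 and 0.138 CPM in NCI-N87 libraries.

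Of the 12 steps between neighbouring lines other than MKN1, 10 passed both criteria (4 of 4 for VAV3, 3 of 4 for CXCR4, 2 of 2 for PPARGC1A and 1 of 2 for PCDH18). This stands against a high background, since between untreated lines at 4 h 38.4% of all genes were regulated for MKN1 and MKN7, 43.8% for MKN1 and NCI-N87, 46.0% for MKN1 and Hs746T, 41.4% for MKN7 and NCI-N87, 43.0% for MKN7 and Hs746T and 46.4% for NCI-N87 and Hs746T. At 24 h the same pairs had 40.2%, 43.7%, 45.3%, 42.3%, 43.9% and 46.7%. Of the steps that passed, CXCR4 between NCI-N87 and Hs746T cells at 4 h lay at 0.131 against 0.0234 CPM. PCDH18 between MKN7 and NCI-N87 cells at 24 h lay at 0.0945 against 0.00687 CPM. These values are at or near the 3-count level, and both genes passed the filter of this fit through other lines, where they were higher. The lines also differed in their markers, with low CDH1 in both MKN1 and Hs746T cells, and the part of cell state in these levels was not tested.

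**Figure D2:**
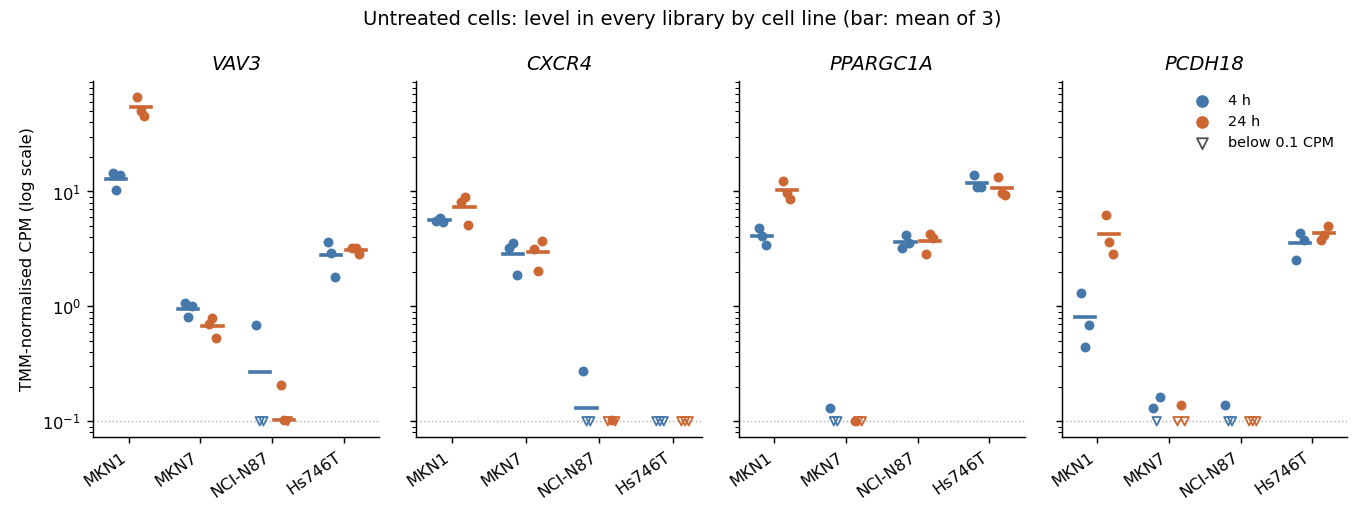
TMM-normalised CPM (log scale) of the 4 genes in every untreated library by cell line, with bars for means of 3 and open triangles at the dotted line for libraries below 0.1 CPM, whose means are drawn only above that line. VAV3 is highest in MKN1 cells, CXCR4 is near 0 in NCI-N87 and Hs746T cells, and PPARGC1A is near 0 in MKN7 cells.

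Afatinib raised CXCR4 in MKN7 cells after 4 h but not after 24 h. The untreated libraries held 3.25, 3.54 and 1.86 CPM at 4 h, and afatinib gave 7.12, 5.31 and 5.69 CPM. Trastuzumab + afatinib gave 7.12, 5.89 and 6.06 CPM. Both treated groups lay above all untreated libraries, with a log2FC of 1.02 ± 0.24 (adjusted p = 0.00323, edgeR) for afatinib and 1.10 ± 0.24 (adjusted p = 0.00152, edgeR) for the combination. CXCR4 was 1 of 3 members tested in each comparison and the member that passed, where 3.4% and 3.71% of all genes were regulated. The call with afatinib rested on few libraries, since without replicate 1 the log2FC was 1.01 with an adjusted p of 0.054 and without replicate 3 it was 0.83 with an adjusted p of 0.0377, below the fold limit. Over the 9 alternatives of this comparison the adjusted p ranged from 0.00023 to 0.054. Without replicate 3 the log2FC of the combination was 0.90.

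After 24 h the untreated MKN7 libraries held 3.17, 2.04 and 3.71 CPM of CXCR4 and the afatinib libraries 2.38, 1.70 and 2.03 CPM. Each afatinib library was below the untreated one of its number, although the groups overlapped, and the log2FC was -0.54 ± 0.24 with an adjusted p of 0.0687 in edgeR. With the replicate number as a block the adjusted p was 0.026, and 0.0235 for the combination (log2FC -0.55), short of the fold limit, where the range over 9 alternatives was 0.026 to 0.268 and 0.0235 to 0.275. The effect of afatinib at 24 h minus that at 4 h was -1.56 ± 0.34 on the log2 scale, with an adjusted p of 0.00292 in edgeR and of 0.0466 at most over the 9 alternatives. A difference of this kind was called by adjusted p alone for 18.0% of all genes in MKN7 cells. VAV3 in MKN7 cells had log2FC between -0.28 and -0.04 in the 4 comparisons with afatinib, with adjusted p of at least 0.484. PCDH18 had log2FC from 0.45 to 1.29 at levels of at most 0.318 CPM, and it passed the filter on low counts through 4 libraries, all of them with afatinib. Its highest value, at 24 h with trastuzumab + afatinib, had an adjusted p of 0.0798 in edgeR. Since the filter let PCDH18 in through treated libraries alone, this p is not read as a test. At 24 h 0 of the 3 members tested were regulated by either treatment (13.5% and 13.9% of all genes), DESeq2 called 0, and the unadjusted p was below 0.05 for 1 member with afatinib and 2 with the combination. These counts include PCDH18.

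In NCI-N87 cells, VAV3 was higher after 24 h of afatinib. The untreated libraries held 0.207, 0.103 and 0 CPM, or 16 counts in all, and afatinib gave 1.31, 0.798 and 0.715 CPM, or 158 counts. Trastuzumab + afatinib gave 1.00, 0.897 and 0.660 CPM. The groups did not overlap, and the log2FC was 3.05 ± 0.79 (adjusted p = 0.002, edgeR) with afatinib and 2.91 ± 0.79 (adjusted p = 0.00293, edgeR) with the combination. VAV3 was the only one of 3 members tested to pass, in comparisons that called 29.6% and 31.6% of all genes. It was low here, over the filter level of 0.207 CPM in 14 of 24 libraries, 10 of which held afatinib and 2 of which were untreated. With afatinib at 24 h the epithelial markers KRT8 (-1.37) and KRT18 (-1.87) fell, 2 of 5 of that list, and its sum was 9510 to 11700 CPM against 17400 to 20100 CPM in untreated cells. The endothelial markers VWF (1.45) and CDH5 (2.35) rose, 2 of 4 tested in their list, whose sum was 27.2 to 29.4 CPM against 13.6 to 18.8 CPM. CDH5 had a median of 0.071 CPM and a maximum of 0.373 CPM over the NCI-N87 libraries, near the 3-count level. The part of these markers in the VAV3 value was not tested.

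After 4 h the untreated NCI-N87 libraries held 0.690, 0.0740 and 0.0411 CPM of VAV3 and the afatinib libraries 0.424, 0.472 and 0.121 CPM. Replicate 1 of the untreated cells stood above the other 2 by 0.616 CPM, and the log2FC was 0.35 ± 0.73 with all libraries and 2.32 without replicate 1 (adjusted p = 0.824 and 0.149, edgeR). The effect at 24 h minus that at 4 h was 2.70 ± 1.09 with an adjusted p of 0.0595, and with the replicate number as a block it was 2.66 with an adjusted p of 0.00875. Without replicate 1 it was 1.45 with an adjusted p of 0.517, the ends of the range over 8 alternatives. By adjusted p alone, 35.8% of all genes differed in this way in NCI-N87 cells.

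PPARGC1A was higher in NCI-N87 cells after 4 h of afatinib by just under a log2FC of 1. The untreated libraries held 3.24, 4.14 and 3.53 CPM, those with afatinib 6.02, 8.59 and 6.31 CPM and those with the combination 5.57, 8.36 and 5.72 CPM. No treated library overlapped an untreated one. The log2FC was 0.95 ± 0.24 (adjusted p = 0.00654, edgeR) and 0.86 ± 0.24 (adjusted p = 0.0139, edgeR), short of the fold limit, so that 0 of 3 members were regulated at 4 h where 3.24% and 3.01% of all genes were. DESeq2 also called 0 in both, and the unadjusted p was below 0.05 for 1 member in each. After 24 h the untreated libraries held 2.85, 4.27 and 3.90 CPM and the afatinib libraries 3.68, 4.97 and 4.05 CPM, which overlapped, with a log2FC of 0.14 ± 0.24 (adjusted p = 0.628, edgeR). The effect at 24 h minus that at 4 h was -0.81 ± 0.33 with an adjusted p of 0.0654 and, with the replicate number as a block, -0.80 with an adjusted p of 0.000536, where the range over 9 alternatives was 0.000536 to 0.267. CXCR4 in NCI-N87 cells had log2FC from -1.09 to 0.62 with afatinib, at levels of at most 0.276 CPM and with adjusted p of at least 0.267 in edgeR. It was over the filter level in 3 libraries, 2 of them with afatinib and 1 untreated, so nothing is read from the lack of a call. The 3 members tested in NCI-N87 cells include it.

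**Figure D3:**
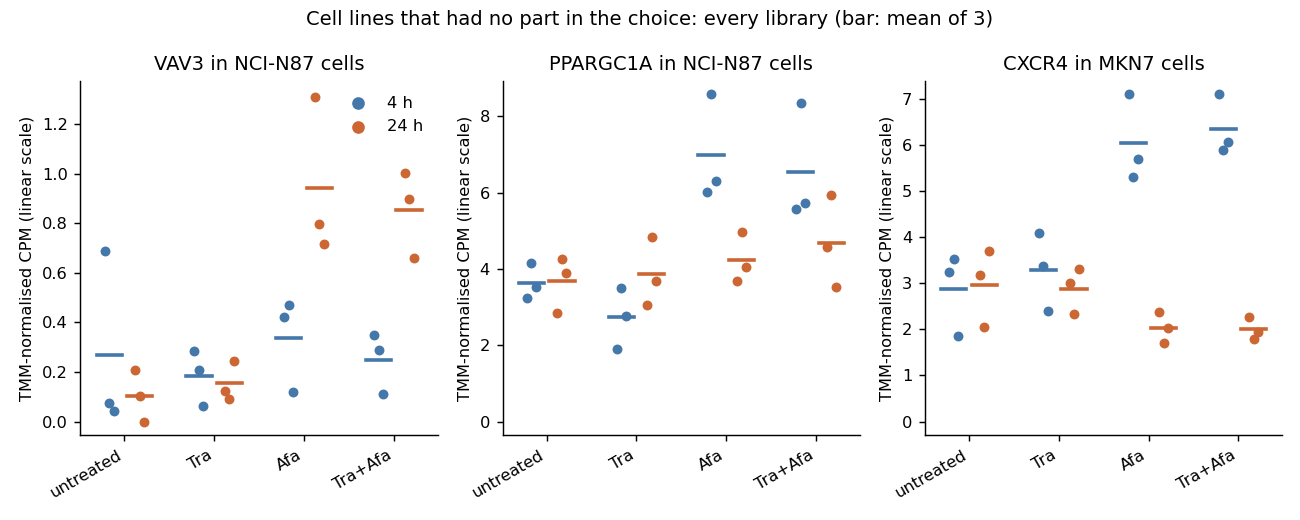
TMM-normalised CPM (linear scale) of VAV3 and PPARGC1A in NCI-N87 cells and of CXCR4 in MKN7 cells in every library by treatment and time, with bars for means of 3. VAV3 is raised at 24 h, PPARGC1A and CXCR4 at 4 h, and trastuzumab alone overlaps the untreated libraries.

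In Hs746T cells 0 of 54 tests of the members passed over 18 treatment comparisons, and 0% of all genes were regulated in each. VAV3, PPARGC1A and PCDH18 had log2FC from -0.24 to 0.26 with standard errors of at most 0.29 and adjusted p of at least 0.951 in edgeR. No unadjusted p was below 0.05, and DESeq2 called 0. VAV3 ranged from 1.79 to 4.26 CPM over the 42 libraries, PPARGC1A from 7.32 to 15.3 CPM and PCDH18 from 2.55 to 5.68 CPM. Replicate 1 was the highest of its 3 libraries for PPARGC1A in all 14 conditions.

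Trastuzumab alone did not detectably change the members. Over 18 tests in the 3 lines other than MKN1 the log2FC ranged from -0.54 to 0.48, adjusted p was at least 0.987 in edgeR, 0 were called by edgeR and by DESeq2, and 0 had an unadjusted p below 0.05. The largest standard error was 0.96, for VAV3 in NCI-N87 cells, so that a sizeable change would be missed there. Trastuzumab + afatinib differed from afatinib alone by log2FC from -0.44 to 0.93 over another 18 tests, with adjusted p of 1.0 throughout, 0 calls by either tool and 0 unadjusted p below 0.05. In MKN1 cells, whose libraries took part in the choice, the log2FC ranged from -0.07 to 0.36 with trastuzumab alone and from -0.11 to 0.20 for the combination against afatinib. In both kinds of comparison 0% of all genes were regulated in every line.

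The effect of afatinib was compared between the lines other than MKN1. At 24 h VAV3 responded more in NCI-N87 cells than in Hs746T cells, by 3.13 ± 0.58 on the log2 scale (adjusted p = 5e-06, edgeR), and more than in MKN7 cells, with a difference of MKN7 minus NCI-N87 of -3.16 ± 0.64 (adjusted p = 5.9e-05, edgeR). At 4 h PPARGC1A responded more in NCI-N87 than in Hs746T cells, by 1.15 ± 0.37 (adjusted p = 0.0371, edgeR). This call was lost without replicate 2 (1.03, adjusted p = 0.391), without replicate 3 (1.24, adjusted p = 0.218) and without the filter (1.15, adjusted p = 0.0525). These were 3 calls in 24 tests. The 24 include tests of CXCR4 with Hs746T, of PPARGC1A with MKN7 and of PCDH18 with NCI-N87 cells. There the gene had no library over the filter level of that line, so nothing is read from the lack of a call. By adjusted p alone, at 4 h 1.01% of all genes differed between MKN7 and NCI-N87, 5.3% between MKN7 and Hs746T and 6.74% between NCI-N87 and Hs746T cells, and at 24 h 21.4%, 18.8% and 35.1%.

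**Figure D4:**
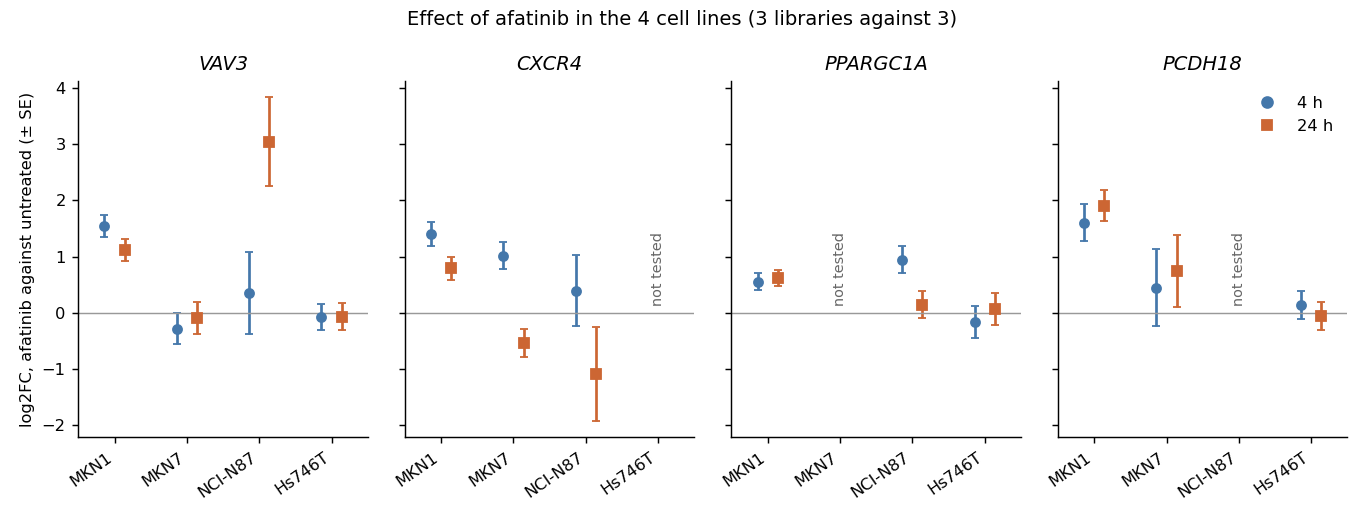
log2FC of afatinib against untreated cells with its SE for each gene in the 4 lines after 4 h and 24 h (3 libraries against 3), where lines in which the gene was too low are given as not tested. The MKN1 values chose the genes, and in the other lines VAV3 in NCI-N87 cells at 24 h, at 3.05, is the highest value.

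MAPK target genes were read as a check that the treatments acted. Of 12 tested reference genes of the EGFR to MAPK cascade, 6 rose with EGF at 4 h and 7 at 24 h in MKN1 cells, with list medians of 1.05 and 1.06 against -0.00166 and -0.0455 over all genes. SPRY4 rose with EGF at 24 h (1.75), whereas EGR1 had a log2FC of -0.70 there and was not regulated. With EGF + cetuximab at 24 h EGR1 fell (-1.43, adjusted p = 0.00398, edgeR). With afatinib at 24 h 12 of 12 fell in each of the 3 lines other than Hs746T, with medians of -2.55 (MKN1), -2.57 (MKN7) and -3.27 (NCI-N87). DUSP6, a phosphatase that switches off ERK, changed by -4.31 in MKN1, by -4.12 in MKN7 and by -5.46 in NCI-N87 cells. In Hs746T cells DUSP6 had a log2FC of -0.04 with afatinib at 24 h (adjusted p = 1.0, edgeR) and ranged from 33.0 to 55.8 CPM. In MKN7 cells at 24 h, where 12 of 12 reference genes fell, 0 of 3 members were regulated, and a link between these genes and the members was not tested.

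Among the relatives of VAV3, the 2 other VAV genes did not pass the criteria in MKN1 cells. VAV2 had log2FC of 0.40 ± 0.08 with EGF and -0.36 ± 0.08 with afatinib at 24 h, opposite in sign to VAV3 (adjusted p = 0.000366 and 0.00186, edgeR). VAV1, the form of blood cells, had -0.25 ± 0.17 and -0.01 ± 0.17. In NCI-N87 cells VAV2 fell with afatinib at 24 h by 1.06 on the log2 scale (adjusted p = 5.88e-11, edgeR) while VAV3 rose. Of 17 tested other Rac exchange factors, DOCK2 (1.38) and DOCK4 (1.56) rose and ARHGEF6 (-1.07) fell with EGF at 24 h in MKN1 cells, and ARHGEF6 rose with afatinib (1.05). These 3 of 17 and 1 of 17 stand beside 8.36% and 4.19% of all genes regulated in the same comparisons, which are also the background of the lists that follow for MKN1 cells. The median of the exchange factors with EGF was 0.158, against -0.0455 over all genes.

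Around CXCR4, its ligand CXCL12 had log2FC of 0.19 ± 0.48 with EGF and 0.43 ± 0.47 with afatinib at 24 h in MKN1 cells, at 0.814 to 3.46 CPM over the 42 libraries. ACKR3, a second receptor of CXCL12 that clears the ligand, fell with EGF at 24 h in MKN1 cells, from 99.9, 97.2 and 106 CPM to 23.8, 24.5 and 36.0 CPM (log2FC -1.84 ± 0.20, adjusted p = 1.67e-08, edgeR). With afatinib it was at 93.4, 100.3 and 122 CPM, which overlapped the untreated cells. In MKN7 cells ACKR3 rose with afatinib at both times, by 1.70 ± 0.32 at 4 h and 2.70 ± 0.31 at 24 h (adjusted p = 0.000426 and 4.84e-07, edgeR), at 24 h beside a CXCR4 log2FC of -0.54. Of 20 other chemokine receptors 5 were tested in MKN1 cells, and with EGF at 24 h CCR7 (1.40) rose and CCR10 (-1.39) fell, while with afatinib CCR2 (2.58) rose. Of 11 tested genes that restrain CXCR4, such as RGS proteins and GRK kinases, RGS16 rose with EGF (1.52) and 0 were regulated by afatinib at 24 h.

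The other PGC-1 coactivators had log2FC opposite in sign to PPARGC1A and below the fold limit in MKN1 cells. PPRC1 had log2FC of 0.60 ± 0.09 with EGF and -0.68 ± 0.09 with afatinib at 24 h (adjusted p = 5.91e-06 and 2.77e-06, edgeR), and PPARGC1B 0.57 ± 0.17 and -0.18 ± 0.17 (adjusted p = 0.0091 and 0.484, edgeR). In NCI-N87 cells PPRC1 fell with afatinib by 1.34 at 4 h and by 2.18 at 24 h (adjusted p = 1.17e-09 and 4.57e-14, edgeR). PPARGC1B fell at 4 h with afatinib in MKN7 cells (-1.72, adjusted p = 4.81e-09, edgeR). With trastuzumab + afatinib at 4 h it also fell in NCI-N87 cells (-1.01, adjusted p = 4.91e-05, edgeR). Of 17 tested target genes of PGC-1alpha in MKN1 cells, 1 was regulated in each comparison at 24 h, PDK4, the kinase that shuts pyruvate dehydrogenase, which fell with EGF (-1.24) and rose with afatinib (1.06). That 1 of 17 is near the background of 8.36% and 4.19% of all genes. The target list had medians of 0.0834 with EGF and -0.130 with afatinib, against -0.0455 and 0.00511 over all genes. In NCI-N87 cells 3 of 18 tested targets rose with afatinib at 24 h and 3 fell, among them PCK1 (2.83), PDK4 (2.50) and CYCS (-1.71), near the background of 29.6% of all genes. PDK4 also rose with afatinib at 4 h in MKN7 cells (1.69, adjusted p = 1.76e-07, edgeR), where PPARGC1A did not exceed 0.144 CPM. Of 14 partner transcription factors, MEF2C fell with EGF at 24 h in MKN1 cells (-2.01), and of 14 regulators of PGC-1alpha 0 passed with EGF or with afatinib.

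Of the delta protocadherins 7 were tested in MKN1 cells, PCDH18 among them. PCDH1 rose with EGF at 24 h (1.52), in the direction opposite to PCDH18, and with afatinib PCDH18 alone passed. The list medians, PCDH18 included, were -0.0629 with EGF and 0.330 with afatinib. Markers moved as well. With EGF at 24 h CDH1 (-1.35), 1 of 5 epithelial markers, and PDGFRB (-1.66), 1 of 5 endothelial and fibroblast markers, fell. With afatinib PDGFRB (1.37), CDH5 (2.71) and the leucocyte marker ITGAM (1.42) rose. CDH5 had a median of 0.0953 CPM and a maximum of 0.781 CPM over the MKN1 libraries, near the 3-count level. The part of the markers in the members' values was not tested.

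**Figure D5:**
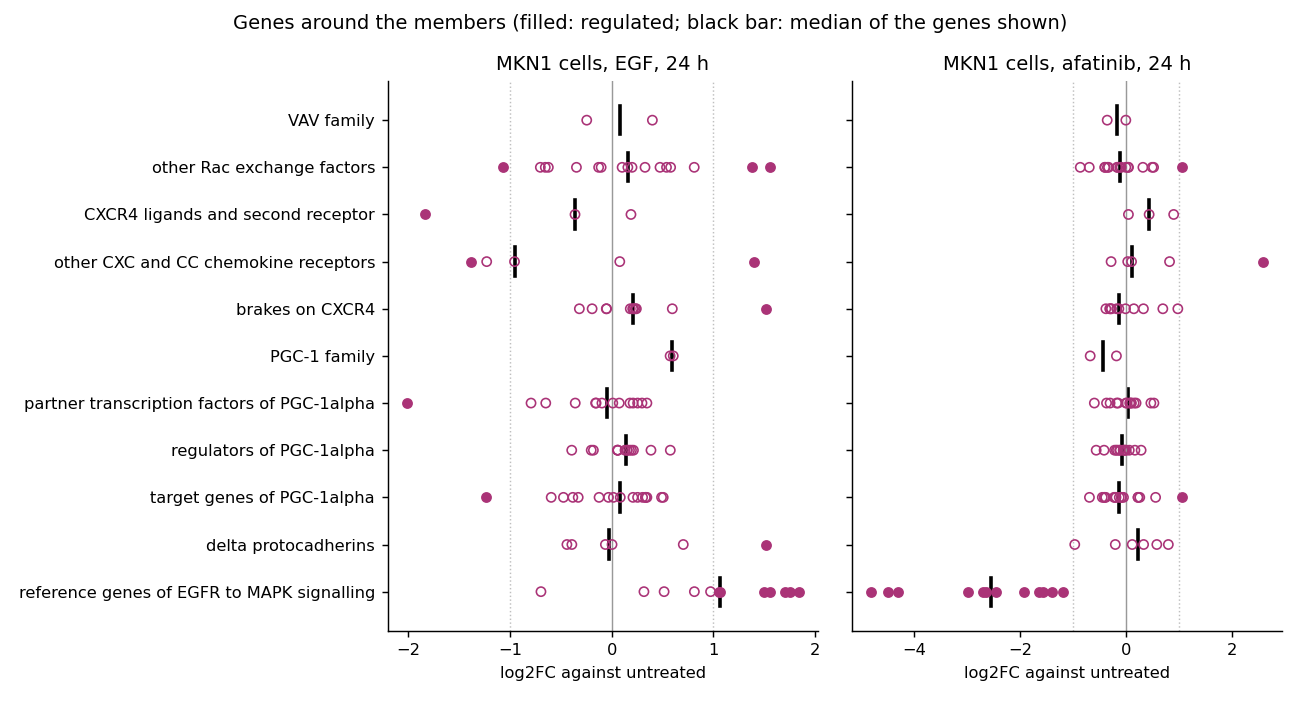
log2FC at 24 h in MKN1 cells of the genes listed around the members, which are left out, with EGF and with afatinib against untreated cells, where filled points are regulated, dotted lines mark a log2FC of 1 and -1 and black bars are medians of the genes shown. Of the reference genes 7 rise with EGF and 12 fall with afatinib, whereas most genes of the other lists lie between the dotted lines.

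Likeness of pattern was measured over the 14 MKN1 condition means (log2 CPM minus the mean of its time point) among 12438 genes. These means share libraries and treatments, so that Pearson's r is a description only. CXCR4 and VAV3 had an r of 0.985, VAV3 and PPARGC1A 0.982, CXCR4 and PPARGC1A 0.966, and PCDH18 had 0.945 with VAV3, 0.910 with PPARGC1A and 0.891 with CXCR4. Many genes were closer to each member than the members were to each other. The nearest to VAV3 were CTPS2 (0.995), DBP (0.994), PROCA1 (0.994), GPR1 (0.993) and WDR78 (0.993), and CXCR4 came 29th. Those nearest to CXCR4 were SEPSECS (0.993), MIEF2 (0.989), EPB41 (0.988), AP003392.4 (0.987) and INKA2 (0.987), with VAV3 12th. For PPARGC1A they were FAM78A (0.989), HINT3 (0.988), MARVELD1 (0.988), NUDT12 (0.987) and KLHDC7A (0.987). For PCDH18 they were PPP1R3C (0.992), PURPL (0.990), HLA-F-AS1 (0.989), PCMTD1 (0.989) and PAX6 (0.988), and VAV3 came 603rd.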

How the data were processed

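Libraries were directional, paired end and made from purified mRNA. The authors deposited raw counts per gene (65217 Ensembl identifiers) for each library, without normalization. The submitters' processing notes name Trim Galore, STAR and hg38. The counting program, its strand setting and its annotation are not given in the sources used here. No match in GENCODE release 29 was found for 8404 identifiers, which held 0.0422% of the counts. The main test was the quasi-likelihood F-test of edgeR 4.0.16 in R 4.3.3 on TMM-scaled counts, after filterByExpr (minimum count 10, minimum total 15). Each line had its own fit of all its libraries, with a mean for every treatment and time, and differences between lines came from a fit of all 44 conditions. Adjustment was over all genes tested, and the fits were tested on simulated data with 200 changed genes. The members and gene lists were chosen with earlier results of these data known. Named genes are the members, at most 3 regulated genes per list and comparison by absolute log2FC, the 5 genes of highest r per member, and DUSP6, SPRY4, EGR1, CXCL12, ACKR3, VAV1, VAV2, PPARGC1B and PPRC1.

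Replicate numbers come from the labels. Deviations from group means correlated above 0.1 between same-numbered libraries in all comparisons other than trastuzumab + afatinib against afatinib in MKN1 cells at 24 h, where 1 pair had 0.0883. The main fits and their p-values did not use this pairing. Only the replicate block, an alternative, took the numbers as pairs. Alternatives were DESeq2 1.42.0, no TMM scaling, no filter, a stricter filter (10 counts in each library), the replicate block, each replicate left out, and fits of the compared groups only. Sample numbers ran in 2 series (65 and 67 libraries), shared by all treatments of a line, time and replicate. Figures used Python 3.11.15 and matplotlib 3.10.9. Results of 1 gene list and 1 marker are not reported here.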

Additional observations from a re-analysis of the deposited data

Results flagged for a closer look

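The effect of afatinib differed between groups in 4 tests of an interaction. CXCR4 in MKN7 cells changed between the time points, with an effect at 24 h minus that at 4 h of -1.56 on the log2 scale. PPARGC1A at 4 h differed between NCI-N87 and Hs746T cells by 1.15. VAV3 at 24 h differed by -3.16 between MKN7 and NCI-N87 cells and by 3.13 between NCI-N87 and Hs746T cells, in the direction of a higher response in NCI-N87 cells in both. VAV3 rested on 16 counts in the 3 untreated NCI-N87 libraries at 24 h. Groups of 3 libraries were not tested for a single one that stood apart.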

How the results depend on the processing

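Of 1453 values under alternatives, 1358 kept their direction, their side of the criteria or their size. Leaving out a replicate moved the number of members past the criteria in MKN1 cells to between 1 and 2 with cetuximab at 4 h, 1 and 3 with EGF + cetuximab at 4 h, 0 and 1 with cetuximab at 24 h, 2 and 4 with EGF + cetuximab at 24 h, and 1 and 2 with afatinib and with trastuzumab + afatinib at 24 h. In MKN7 cells it gave 0 to 1 with afatinib at 4 h and 0 to 1 with the combination at 4 h and at 24 h, and the fit of the compared groups alone gave 1 (PCDH18) with the combination at 24 h. The PCDH18 calls there are not read as a test, because only libraries with afatinib brought it over the filter. In NCI-N87 cells scaling by library size alone gave 1 (PPARGC1A) with afatinib at 4 h. For the difference of the afatinib effect between 24 h and 4 h in NCI-N87 cells, DESeq2, library size alone, no filter and the compared groups alone gave 1 and the replicate block gave 2. For NCI-N87 minus Hs746T at 4 h no filter gave 0 and leaving out a replicate 0 to 1. The log2FC of VAV3 in NCI-N87 cells at 4 h, 0.35 with afatinib and -0.09 with the combination, ranged from -0.418 to 2.32 and from -0.682 to 1.80 when a replicate was left out, and was 0.0317 with the combination under the replicate block. The replicate block changed no other call among the tested results. With at least 10 counts in every library, VAV3 was not tested in NCI-N87 cells and no member in the fit of all lines. The cause of these changes was not tested. Depth limits VAV3 in NCI-N87, PCDH18 in MKN7 and CXCR4 in NCI-N87 cells, which reached at most 75, 17 and 18 counts in a library.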
